A study of Mus musculus with 14 samples.

Results

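The genes described here are 9 surface and receptor genes of mature B cells: Cd79a, Cd79b, Blk, Cr2, Ms4a1, Cd37, Cd22, Fcer2a and Cd72. A gene was measured where a probe of the array was annotated to it alone, and the probe with the highest mean was taken. By that rule 8 of the 9 genes were measured, each by 1 probe, among 22180 genes in all, and all 8 passed the filter on dim genes. The remaining gene, Cd72, shared its probe with Tesk1 and is given no level. The samples were bone marrow cells sorted as Sca1+ and Kit- from female NCR-NU mice, an athymic nude strain that lacks thymus-derived T cells and keeps B cells. The groups were old tumor-bearing mice (n = 3), old cancer-free mice (n = 5), young tumor-bearing mice (n = 3) and young cancer-free mice (n = 3). Tumor-bearing mice carried primary tumors matched for size, and cancer-free mice received Matrigel, a basement-membrane gel, as the control. The labels call the 14 arrays biological replicates. They give neither an age in weeks nor the kind of tumor.

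The B cell receptor is a membrane immunoglobulin that cannot signal by itself. Its paired chains, encoded by Cd79a and Cd79b, carry the signal into the cell, where Src family kinases such as Blk start phosphorylation. Coreceptors set the strength of that signal: the complement receptor encoded by Cr2 lowers the threshold, and Cd22 and Cd72 dampen it. In marrow, recirculating mature B cells carry more of the late surface proteins than the immature cells formed there.

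The bases upstream of a start site are shown for Cd22 and Cr2, which had the lowest tumor differences in old mice, and for Cd79a, whose groups overlapped in every comparison. Each run is the 250 bases before the RefSeq start in GRCm38.p6, written 5′ to 3′ on the gene's strand, and capitals mark motif matches. The windows are chr7:30879029-30879278 on the minus strand for Cd22, chr1:195176720-195176969 on the minus strand for Cr2 and chr7:24897247-24897496 on the plus strand for Cd79a.
Cd22: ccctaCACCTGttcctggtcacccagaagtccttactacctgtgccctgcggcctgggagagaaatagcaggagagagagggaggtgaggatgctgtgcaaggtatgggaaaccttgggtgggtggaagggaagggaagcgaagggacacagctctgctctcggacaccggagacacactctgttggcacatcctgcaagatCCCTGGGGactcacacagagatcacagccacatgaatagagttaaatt
Cr2: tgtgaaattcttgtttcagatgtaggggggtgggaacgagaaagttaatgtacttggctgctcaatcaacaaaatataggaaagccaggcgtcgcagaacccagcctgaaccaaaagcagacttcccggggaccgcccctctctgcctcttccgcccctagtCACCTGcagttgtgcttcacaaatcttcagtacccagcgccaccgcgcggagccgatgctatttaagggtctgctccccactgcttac
Cd79a: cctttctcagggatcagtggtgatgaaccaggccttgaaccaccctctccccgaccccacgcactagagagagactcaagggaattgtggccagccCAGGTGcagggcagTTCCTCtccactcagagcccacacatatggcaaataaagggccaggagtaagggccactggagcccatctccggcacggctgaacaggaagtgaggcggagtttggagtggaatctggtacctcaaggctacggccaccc
The motifs searched on both strands were the octamer ATGCAAAT, the Ebf1 core CCCNNGGG, the PU.1 core GAGGAA and the E-box CAGGTG bound by E2A. Cd22 held an Ebf1 core and an E-box, Cr2 held an E-box, and Cd79a held a PU.1 core and an E-box, with no matches overlapping. Among 32851 windows of all genes the octamer occurred in 1.60%, the Ebf1 core in 11.8%, the PU.1 core in 23.3% and the E-box in 17.2%. The 8 windows of 6 of the 9 listed genes held the E-box in 5, the PU.1 core in 3, the Ebf1 core in 1 and the octamer in 0. Fcer2a supplied 3 of the 8 windows, so these are counts of windows and not of genes. These matches describe letters in a window and are not binding sites. Cd79b, Ms4a1 and Blk are named only.

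Values are log2 intensities after robust multi-array averaging (RMA), so a difference of 1 is a 2-fold change, and levels are compared between arrays for 1 gene and not between genes. The array medians lay between 3.81 and 3.93, and the floor for a dim value was the median of the whole table, 3.88. The mean correlation of an array with the other arrays was lowest for young tumor-bearing replicate 1 (0.899) and old tumor-bearing replicate 3 (0.907). Kit, absent from the sorted cells' surface by design, still averaged 6.0 ± 0.27 in old tumor-bearing (SD, n = 3), 5.50 ± 0.27 in old cancer-free (SD, n = 5), 6.62 ± 0.48 in young tumor-bearing (SD, n = 3) and 5.88 ± 0.55 in young cancer-free samples (SD, n = 3). In sorted bulk cells, fewer cells of a type and less RNA per cell cannot be told apart.

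The signaling chains overlapped between all groups. Cd79a had 9.24, 8.89 and 9.56 in old tumor-bearing mice, against 9.87, 9.42, 9.22, 8.24 and 8.76 in old cancer-free mice. In young mice it had 9.19, 9.86 and 9.50 with tumors and 9.80, 9.43 and 9.05 without. The groups overlapped, and old cancer-free replicate 4 was the lowest array. The tumor difference was 0.13 ± 0.32 (SE) in old mice, with a 95% interval of -0.56 to 0.82, and 0.09 ± 0.36 in young mice (limma, adjusted p = 0.918 and 0.979). Cd79b, its partner chain, had 10.07, 10.34 and 9.77 in old tumor-bearing mice and 10.16, 9.88, 9.75, 9.16 and 10.06 in old cancer-free mice. It had 10.07, 9.97 and 9.99 in young tumor-bearing mice and 10.13, 10.19 and 9.67 in young cancer-free mice. The groups overlapped again, and the tumor difference in old mice was 0.26 ± 0.23, with an interval of -0.22 to 0.75 (limma, adjusted p = 0.726).

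Blk, the Src family kinase of B cells, had 4.38, 3.87 and 4.47 in old tumor-bearing mice and 4.71, 4.48, 4.69, 3.97 and 4.69 in old cancer-free mice. It had 5.56, 4.45 and 4.41 in young tumor-bearing mice and 5.71, 4.55 and 4.60 in young cancer-free mice. Replicate 1 of each young group was about 1 log2 unit above the other young arrays. Averaged over tumor status, old minus young was -0.50 ± 0.24, with an interval of -1.02 to 0.02 (limma, adjusted p = 0.391). Without young tumor-bearing replicate 1, or without young cancer-free replicate 1, that difference was -0.31.

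Cr2, the complement receptor CD21 of the B cell coreceptor, had 3.84, 3.47 and 3.37 in old tumor-bearing mice, against 4.43, 5.50, 5.57, 4.58 and 3.90 in old cancer-free mice. All 3 old tumor-bearing arrays were under the floor and under every old cancer-free array. It had 3.93, 4.60 and 4.05 in young tumor-bearing mice and 5.08, 4.16 and 4.31 in young cancer-free mice, which overlapped. The difference in old mice was -1.24 ± 0.36, with an interval of -2.0 to -0.47. It did not pass the test over all genes (limma, unadjusted p = 0.004, adjusted p = 0.323). With the tumor-bearing arrays set at the floor the difference was -0.92, so the fitted size is not exact. Between old and young tumor-bearing mice every old array was also lower, by -0.64 ± 0.40 (limma, adjusted p = 0.618), and by -0.32 with values under the floor set at it.

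Cd22, the sialic acid binding receptor that restrains the B cell receptor, had 5.93, 5.34 and 5.02 in old tumor-bearing mice, against 5.96, 7.01, 6.58, 7.04 and 6.67 in old cancer-free mice. Every old tumor-bearing array was below every old cancer-free array, the closest pair being 5.93 and 5.96. It had 6.36, 5.65 and 5.17 in young tumor-bearing mice and 6.91, 6.26 and 6.14 in young cancer-free mice, which overlapped. The difference was -1.22 ± 0.32 in old mice, with an interval of -1.91 to -0.54, which is 0.429 of the cancer-free level. In young mice it was -0.71 ± 0.36, with an interval of -1.47 to 0.06, and leaving out 1 array moved it between -0.43, without young tumor-bearing replicate 3, and -1.02, without young tumor-bearing replicate 1. Neither passed the test (limma, adjusted p = 0.279 in old and 0.887 in young mice). Averaged over age it was -0.96 ± 0.24 (limma, adjusted p = 0.312). Without old tumor-bearing replicate 3 the difference in old mice was -1.02 for Cd22 and -1.14 for Cr2.

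Fcer2a, the low-affinity IgE receptor CD23, had 4.92, 5.08 and 3.77 in old tumor-bearing mice and 4.95, 5.85, 6.22, 5.10 and 5.03 in old cancer-free mice. It had 6.75, 4.52 and 4.69 in young tumor-bearing mice and 6.64, 5.44 and 5.98 in young cancer-free mice. Young tumor-bearing replicate 1 was the highest of all 14 arrays and lay over 2 log2 units above the other arrays of its group. The tumor difference was -0.84 ± 0.50 in old and -0.70 ± 0.56 in young mice (limma, adjusted p = 0.610 and 0.902). In old mice it was -0.43 without old tumor-bearing replicate 3, and in young mice -1.41 without young tumor-bearing replicate 1.

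Cd37, a tetraspanin of mature B cells, had 8.77, 8.88 and 8.40 in old tumor-bearing mice and 8.82, 9.04, 8.83, 8.78 and 9.01 in old cancer-free mice. It had 8.74, 9.08 and 8.27 in young tumor-bearing mice and 9.15, 8.97 and 8.88 in young cancer-free mice. Its range over the 14 arrays was 0.87, and its tumor difference was -0.21 ± 0.19 in old and -0.30 ± 0.21 in young mice (limma, adjusted p = 0.734 and 0.900). The old value was -0.07 without old tumor-bearing replicate 3, and the young value was -0.09 without young tumor-bearing replicate 3 and -0.49 without young tumor-bearing replicate 2.

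Ms4a1, which encodes CD20, had 7.81, 7.04 and 7.82 in old tumor-bearing mice and 8.54, 7.81, 7.81, 7.04 and 7.82 in old cancer-free mice. It had 6.18, 7.97 and 7.21 in young tumor-bearing mice and 7.88, 7.60 and 7.68 in young cancer-free mice. Old tumor-bearing replicates 1, 2 and 3 matched old cancer-free replicates 3, 4 and 5 in order, with a largest gap of 0.0053. Over 41345 probes and 12 such ordered comparisons a probe, this was the 1 match within 0.006 whose 3 values spanned over 0.5. That search was written with the Ms4a1 values known, so its outcome is not independent of them. The arrays themselves were not copies: any pair had between 0.668% and 1.20% of probes within 0.005. The values are given as deposited, the origin of the match is not known, and Ms4a1's differences involving old mice should be read with that limit. As deposited, the tumor difference was -0.25 ± 0.37 in old and -0.60 ± 0.41 in young mice (limma, adjusted p = 0.861 and 0.899). The young value was -0.13 without young tumor-bearing replicate 1.

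**Figure D1:**
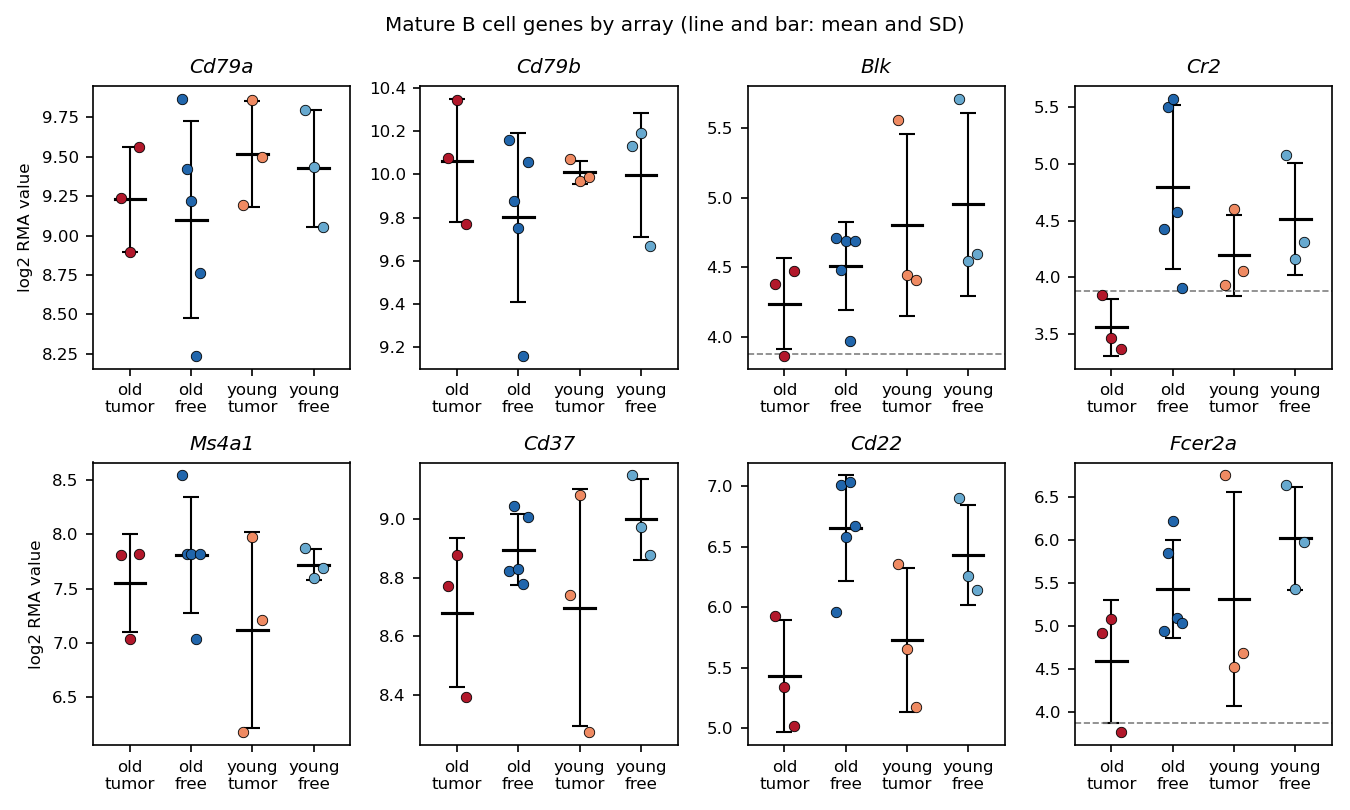
Log2 intensity of the 8 measured genes on each array (points), by group, with group means. Cd22 and Cr2 in old tumor-bearing mice lie below all old cancer-free arrays, while Cd79a and Cd79b overlap throughout.

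No member was called in any comparison, and few or no genes of the array were. In old mice 0 of 8 members and 0 of 13805 genes (0%) passed an adjusted p of 0.05 for the tumor difference, where 1348 genes had an unadjusted p under 0.05. Cd22 and Cr2 were the 2 members lower at that unadjusted level, where 5.56% of genes were. They were also the 2 of 8 whose groups did not overlap with tumor-bearing lower, which held for 3.04% of genes. Averaged over age the same 2 members were lower at the unadjusted level, against 6.01% of genes, and without the 2 least correlated arrays Cr2 was no longer among them (limma, unadjusted p = 0.058). In old mice 6 members were lower and 2 higher, with a median of -0.26 against 0.01 over all genes. In young mice these were 6, 2 and -0.31, against -0.02 over all genes. Leaving out Ms4a1 gave 5 lower and 2 higher at both ages, with medians of -0.27 in old and -0.30 in young mice. Without the 2 least correlated arrays 7 of 8 members were lower and 1 higher at both ages. The tumor comparison in young mice called 0 genes (0%), with 745 at an unadjusted p under 0.05 and 0 members among them. The difference between the tumor effects of old and young mice was -0.92 ± 0.54 for Cr2 and -0.52 ± 0.48 for Cd22, and the smallest adjusted p of a member was 0.976 (limma). Without the 2 least correlated arrays the Cd22 value was 0.0063, and those of Fcer2a and Ms4a1 also changed sign, to 0.98 and -0.26. The tumor difference was thus not shown to differ between the ages.

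**Figure D2:**
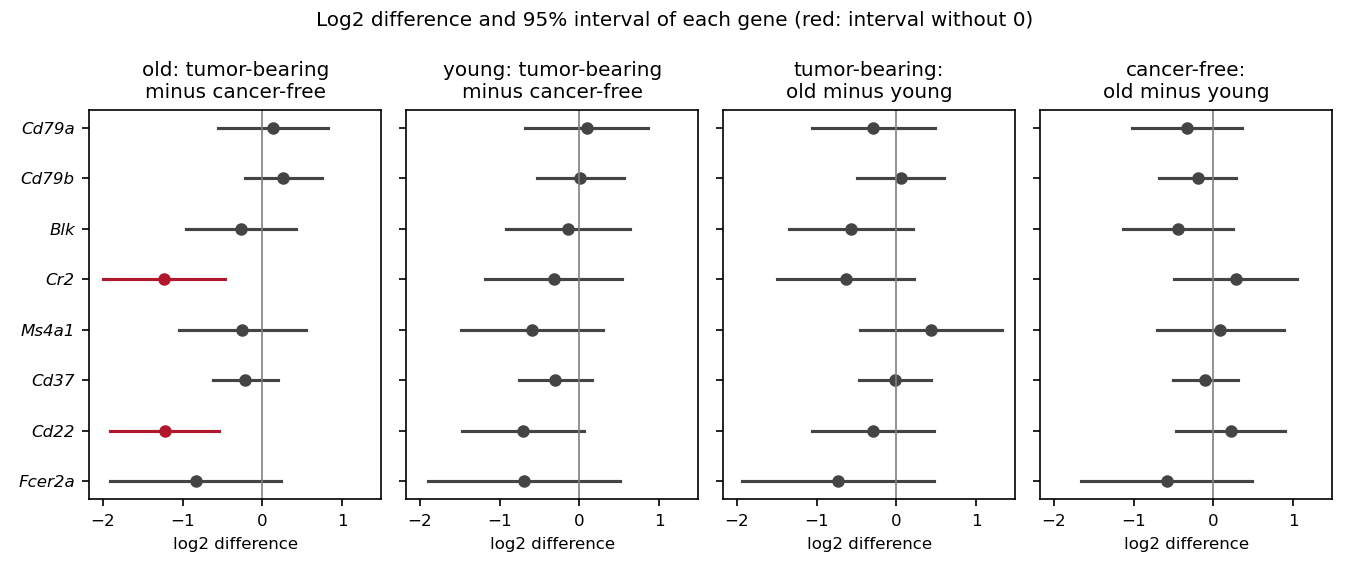
Log2 differences with 95% intervals for the 8 measured genes in the tumor and age comparisons. In old mice the intervals of Cd22 (-1.91 to -0.54) and Cr2 (-2.0 to -0.47) lie below 0, and those of the other 6 genes span it.

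Between old and young mice no member passed the test. Averaged over tumor status, 12 of 13805 genes were called (0.0869%) and 0 of 8 members, 7 of which were lower and 1 higher, with a median of -0.12 against -0.01 over all genes. The one higher was Ms4a1, at 0.26 ± 0.28. This tally was not stable: without the 2 least correlated arrays 5 members were lower and 3 higher, with Ms4a1 at -0.04, Cd22 at 0.22, Cd37 at 0.02 and Cd79b at 0.02, and cyclic loess also turned Cd22, Cd37 and Cd79b positive. Fcer2a differed by -0.66 ± 0.38, by -0.30 without young tumor-bearing replicate 1 and by -0.095 without the 2 least correlated arrays. In cancer-free mice alone the smallest adjusted p of a member was 0.765, and in tumor-bearing mice alone it was 0.618 (limma). Those comparisons called 0 genes (0%), with 1057 and 1394 at an unadjusted p under 0.05. In tumor-bearing mice Cr2 was the 1 member with no overlap, old lower, as were 7.1% of genes.

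**Figure D3:**
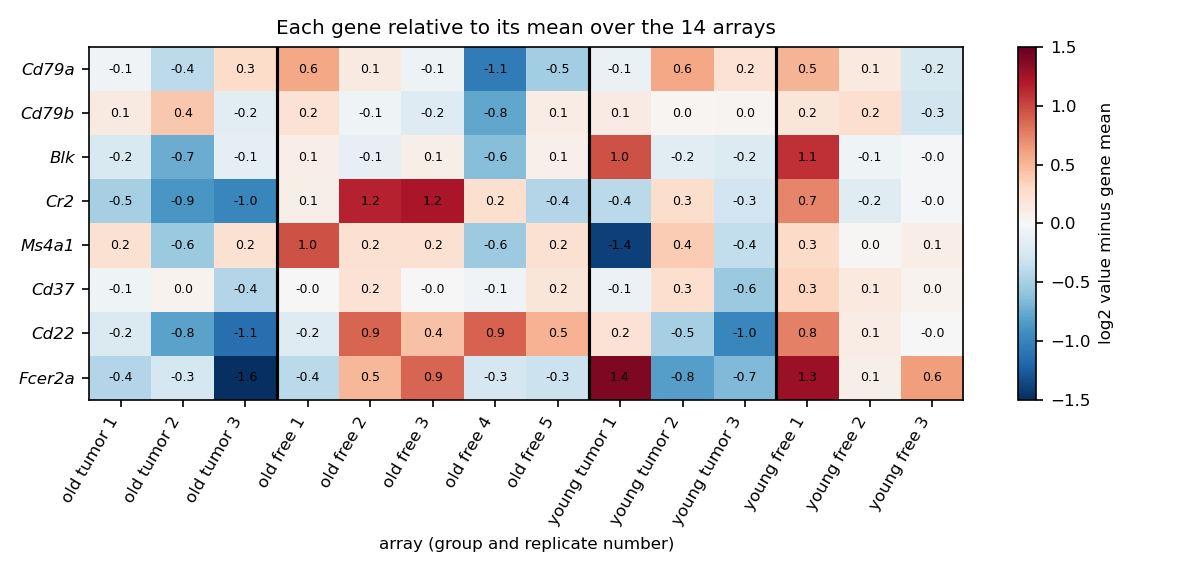
Each gene's log2 value on each array minus its mean over the 14 arrays, with the color scale limited to 1.5 either way. Cd22 and Cr2 are below their means on all 3 old tumor-bearing arrays, and Fcer2a and Blk are above theirs in replicate 1 of both young groups.

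The members varied unequally within groups. The within-group SD was 0.78 for Fcer2a, above that of 95.8% of tested genes, and 0.23 for Cd37, above that of 20.7%, with a median of 0.34 over all genes. Over the 14 arrays 21 of 28 pairs of members correlated positively, with a median Pearson r of 0.26. The highest Pearson r was that of Cd22 with Cr2, 0.68 (permutation p = 0.0072, adjusted p = 0.0849). Its Spearman rho was 0.61 (permutation p = 0.0237, adjusted p = 0.221). Arrays were shuffled across groups, so differences between groups enter these p values. The r of Cd22 with Cr2 was 0.61 without the 2 arrays farthest from the median and 0.33 after removing group means. Cd22 with Fcer2a had the highest rho, 0.69, and an r of 0.67 that stayed at 0.67 after removing group means. No pair passed the adjustment over the 28. Without Ms4a1, 17 of 21 pairs were positive, with a median of 0.27. Tested genes were also ranked by how closely they followed the mean of the members. Predicted and clone-named genes, olfactory and vomeronasal receptors, small RNA genes and every symbol beginning Rn were left out. Of the rest, those that followed it most closely over the 14 arrays were Lrrk2 (r = 0.81), Phf19 (0.79), Vav1 (0.76), Pknox1 (0.75) and Slc35g3 (0.75). With Ms4a1 left out, 3 of these 5 stayed among the first 5. These r values describe arrays that share groups and carry no test.

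Other genes of the pathway gave 0 calls between old tumor-bearing and old cancer-free mice. Of 16 measured genes of activating B cell receptor signaling, 8 were lower and 8 higher in old tumor-bearing than in old cancer-free mice, with a median of -0.02. Cd81, a tetraspanin of the Cr2 coreceptor complex, averaged 10.86 ± 0.18 in old tumor-bearing and 10.14 ± 0.21 in old cancer-free mice, a difference of 0.72 ± 0.17 (limma, adjusted p = 0.223). Its means in young mice were 10.36 with tumors and 10.38 without. Of 7 genes of inhibitory receptors and phosphatases, 7 were lower in old tumor-bearing mice, with a median of -0.16. Siglecg, a sialic acid binding inhibitor related to Cd22, averaged 3.85 ± 0.11 in old tumor-bearing and 4.67 ± 0.15 in old cancer-free mice (-0.83 ± 0.23, adjusted p = 0.300 by limma). Its old tumor-bearing mean was under the floor of 3.88, so the fitted size is not exact. Young mice averaged 4.98 for Siglecg with tumors and 4.80 without. Of 9 other mature B cell surface genes, 5 were lower and 4 higher, with a median of -0.22 and differences from -0.83 to 0.90. Tnfrsf13b, the receptor TACI for B cell survival factors, averaged 7.49 ± 0.22 in old tumor-bearing and 6.60 ± 0.27 in old cancer-free mice (0.90 ± 0.21, adjusted p = 0.223 by limma). Its means in young mice went the other way, at 7.07 with tumors and 7.41 without. Of 12 B lineage transcription factors, 7 were lower and 5 higher, with a median of -0.11 and differences from -1.40 to 0.41. Of 19 immunoglobulin genes, 5 were lower and 14 higher, with a median of 0.06.

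With age, averaged over tumor status, the same lists again gave 0 calls. Of the 16 activating signaling genes 13 were lower in old mice, with a median of -0.14, the lowest being Syk, the kinase recruited by the Cd79a and Cd79b chains, at -0.59 ± 0.24 (limma, adjusted p = 0.316). Of the 12 transcription factors 10 were lower, led by Spib, an Ets factor of B cells and plasmacytoid dendritic cells, at -2.14 ± 0.54 (limma, adjusted p = 0.117). Spib averaged 4.12 ± 1.11 in old tumor-bearing (SD, n = 3), 5.52 ± 1.43 in old cancer-free (SD, n = 5), 7.11 ± 1.02 in young tumor-bearing (SD, n = 3) and 6.82 ± 0.38 in young cancer-free mice (SD, n = 3). Beside these values, 11 of 12 plasmacytoid dendritic cell genes were lower in old mice, with a median of -0.91, and their part in the result was not tested. Cd180, a Toll-like receptor relative on B cells, differed by -1.13 ± 0.33 (limma, adjusted p = 0.183). Of 7 T cell genes 6 were higher in old mice, with a median of 0.78, and the median was 1.39 in tumor-bearing and 0.16 in cancer-free mice. In young mice the T cell genes had a median tumor difference of -0.96, with 7 of 7 lower and 0 called, and their part in the young tumor differences above was not tested. Of 6 monocyte genes 6 were lower, of which Itgam, the integrin chain CD11b, passed the test at -0.96 ± 0.15 (limma, adjusted p = 0.0387). That call was lost in 15 of 24 alternatives, with adjusted p between 0.0215 and 0.125 (limma).

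Markers of other cells are given beside Cd22 and Cr2 for the same groups. The 8 natural killer cell genes had summed linear levels of 1404 to 2396 in old tumor-bearing and 2460 to 3992 in old cancer-free mice. Such sums weigh the brightest genes most. The mean log2 levels of the 8 overlapped, at 7.16 to 7.71 in old tumor-bearing and 7.63 to 8.29 in old cancer-free mice. Of the 8 genes 7 were lower, with 0 called. The 7 plasma cell genes summed to 11222 to 11880 in old tumor-bearing and 7619 to 11154 in old cancer-free mice. Their mean log2 levels overlapped, at 9.76 to 10.05 in old tumor-bearing and 9.10 to 9.83 in old cancer-free mice. All 7 were higher, with 0 called. The 9 genes of B cell progenitors had mean log2 levels of 4.69 to 5.14 in old tumor-bearing and 4.56 to 5.06 in old cancer-free mice, and 3 of them (Vpreb1, Rag2 and Bst1) were under the floor on all arrays. The 12 plasmacytoid dendritic cell genes summed to 1160 to 1518 in old tumor-bearing and 737 to 2095 in old cancer-free mice. Their mean log2 levels were 5.46 to 6.26 and 5.47 to 6.76. In old tumor-bearing mice 8 were lower and 4 higher, with a median of -0.23 and 0 called. The neutrophil granule genes had 6 lower and 1 higher, the monocyte genes 4 and 2, and the T cell genes 4 and 3, with 0 called. Ptprc, the pan-leukocyte CD45, averaged 10.57 ± 0.04 in old tumor-bearing and 10.99 ± 0.29 in old cancer-free mice. The part of these markers in the Cd22 and Cr2 values was not tested.

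**Figure D4:**
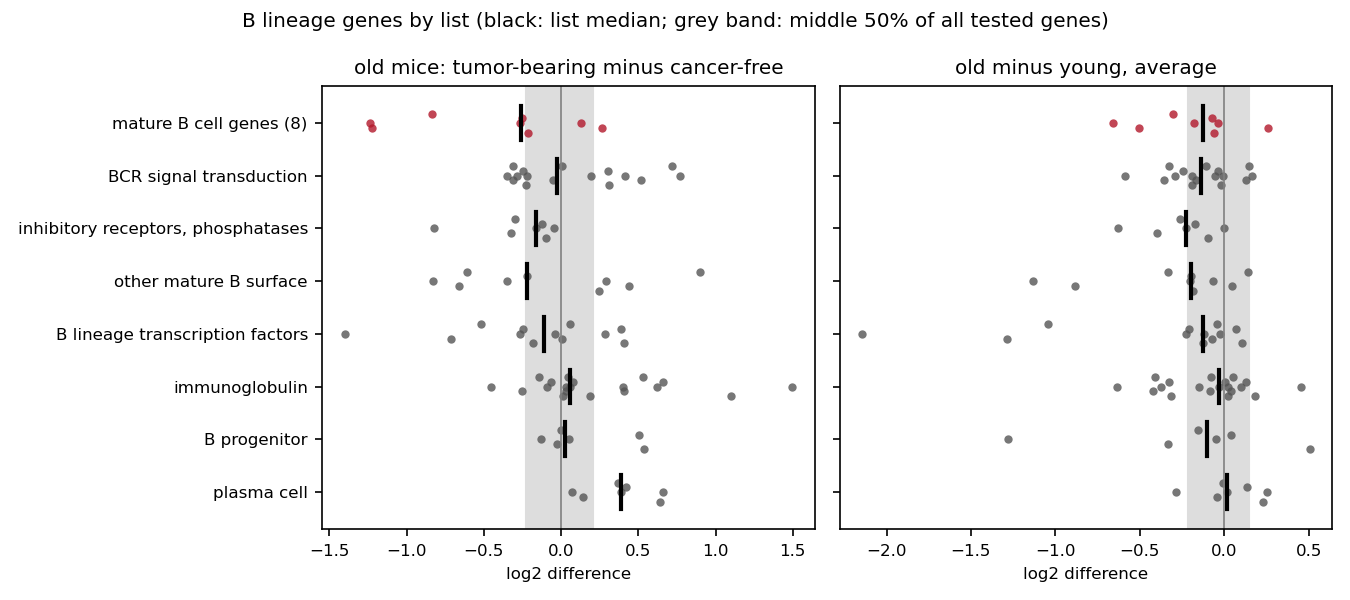
Log2 difference of each gene (points) by list, for tumor-bearing minus cancer-free in old mice and for old minus young averaged over tumor status, with list medians in black and the middle 50% of all tested genes in grey. In old mice the median is -0.26 for the 8 mature B cell genes and 0.39 for the plasma cell list.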

How the data were processed

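The authors' deposited table holds log2 values of 41345 probes on 14 arrays, 1 for each mouse sample. Per the submitters' processing notes it was made with RMA in oligo 1.32.0 under R 3.2.0. No source used here names the array's genome build. Probes with 1 gene symbol (23521) were kept, those with several (1814) or none (16010) were not, and 22180 genes remained with the brightest probe of each. Genes above 3.88 on at least 3 arrays (13805) were tested. Differences came from 1 limma 3.58.1 fit of 4 group means in R 4.3.3, with Benjamini-Hochberg adjustment over all genes in each of 7 contrasts and a threshold of 0.05. The fit was tested on simulated data. A rule picked any called gene and up to 2 genes a list with the smallest p for each averaged difference, age and tumor. Only some of the genes it picked are named. The members and lists were chosen with earlier results of these data known. The number of arrays limits the precision. Alternatives covered scaling, filters, probe choice, array weights, the replicate block and leaving out arrays. The search for matching values and leaving out Ms4a1 were added after its matching values were seen.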

Additional observations from a re-analysis of the deposited data

Results flagged for a closer look

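The probe shared by Cd72 and Tesk1 read 6.45 (log2) in young tumor-bearing replicate 3, above all 8 cancer-free arrays, which lay between 4.38 and 5.48. It was looked at because the comparisons above do not use this probe. The other tumor-bearing arrays read 4.93, 5.09 and 5.01 in old mice and 5.22 and 5.07 in young mice. The signal cannot be assigned to Cd72.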

How the results depend on the processing

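In all 25 alternatives 0 members were called, with a smallest adjusted p of 0.167 (limma). The interval of Cd22 in old mice stayed below 0 in 25 of 25 alternatives and that of Cr2 in 24 of 24, the stricter filter having dropped Cr2. Some alternatives, such as leaving out a young array, cannot move an old-mouse difference and change only its interval. Signs changed in 77 of 1362 values, none among the 4 differences whose interval excludes 0. Many of the 1362 values could not change sign, because the alternative left the estimate as it was. Counts of genes called moved more, and the cause was not tested. Leaving out 1 array gave 0 to 4 genes for the tumor difference in old mice (main 0), 0 to 2 for age in tumor-bearing mice (main 0) and 0 to 74 for age averaged over tumor status (main 12). The 4 came without old tumor-bearing replicate 1, the 74 without old tumor-bearing replicate 3, and the 0 against 12 without young cancer-free replicate 3. For age in tumor-bearing mice, median centring gave 7, the mean of probes 7 and leaving out the 2 least correlated arrays 6. For age averaged over tumor status, cyclic loess gave 6, median centring 65, array weights 57 and leaving out those 2 arrays 43. With the replicate block on the 12 arrays numbered 1 to 3 it gave 0, against 1 without the block on the same arrays. After removing group means, same-numbered arrays of different groups correlated between -0.076 and 0.089, which gave no sign that the numbers pair arrays. With 3 to 5 arrays a group, small differences are not detectable, and a lack of calls does not show that larger ones are absent. In old mice the tumor differences of -1.22 for Cd22 and -1.24 for Cr2 did not pass.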

Other observations

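Ms4a1's matching values are worth checking against the scanner files, which were not used here. Of 5739 probes whose range over the arrays was similar, Ms4a1 was the 1 with 5 arrays inside a window as small as its own, 0.0116. The window and the range were set from the Ms4a1 values already seen, so this count is not independent of them. No cause was tested, and the values were neither changed nor left out of the fit.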
